A study of Mus musculus with 21 samples.

Results

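Ion channel genes were examined in the cerebral cortex of 21 mice, with 1 Affymetrix MOE430A 2.0 array for each mouse. The set was made of every gene with a symbol beginning in Kcn, Scn and a digit, Cacn, or Hcn and a digit on a probe set that named that gene alone, without the epithelial Scnn1 genes. It held 96 of the 12393 genes measured. A gene with more than 1 such probe set was represented by the one of highest mean, which was a choice for 33 of the 96. The set is wider than voltage-gated channels alone. It holds 13 inward rectifiers (Kir, the Kcnj genes), 8 background potassium channels with paired pore domains (K2P, the Kcnk genes), 9 calcium-activated and related potassium channel genes (Kcnm, Kcnn and Kcnu1, drawn as KCa and KNa) and 8 Cacng genes, several of which encode AMPA receptor partners. The voltage-gated members proper were 8 sodium channel pores, 1 sodium channel beta subunit, 20 potassium channel pores with 12 accessory subunits, 9 calcium channel pores with 6 accessory subunits, and 2 Hcn genes.

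All groups but the nontransgenic one carried a form of human TDP-43. This protein binds RNA, regulates splicing and is lost from the nucleus of neurons in amyotrophic lateral sclerosis and frontotemporal dementia. The transgene needs the transactivator tTA, which comes from another transgene and is held off by dietary doxycycline. Tissue was taken 2 weeks after doxycycline ended. In these lines tTA is known to be driven by the Camk2a promoter, which is active mainly in forebrain excitatory neurons. The 5 dNLS bigenic mice (4 males, 1 female by label) carried tTA and TDP-43 with a defective nuclear localization signal (line NLS4). The 4 WT bigenic mice (1 male, 3 females) carried tTA and wild-type TDP-43 (line WT12). The 4 dNLS monogenic mice (3 males, 1 female) carried the NLS4 transgene without tTA, and the 8 nontransgenic mice came from both lines (6 of NLS4 and 2 of WT12, 4 males and 4 females). All were of a mixed C57BL/6J x C3HeJ background, each transgene was represented by 1 line, and no age is given in the labels used here. No group carried tTA alone, so tTA and TDP-43 cannot be told apart where bigenic mice are set against mice without tTA.

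Voltage-gated sodium channels start the action potential, and their beta subunits set how densely and how fast they open. Potassium channels end it and set the resting potential, calcium channels turn it into transmitter release and signalling, and Hcn channels carry a cation current at negative potentials that shapes rhythm and dendritic integration. Accessory subunits such as Kcnab, Kcnip, Cacnb and Cacna2d move the pores to the membrane and tune their gating. Several of these genes have long introns and many alternative exons, and their levels are spread over neurons of different types.

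The values were log2 levels as deposited, with a common lowest value of 2.04 and a highest of 15.1, and array medians lay between 5.76 and 6.05. Of the 96 genes, 25 (26.0%) lay at the lowest value on all arrays, against 23.0% of all genes, so no change could be seen in them. They were Scn3a, Scn7a and Scn9a among sodium channels, Cacna1e, Cacna1f, Cacna1s, Cacng1 and Cacng8 among calcium channel genes, Kcna7, Kcnd1, Kcnh7, Kcnq1, Kcne1 and Kcne3 among voltage-gated potassium channel genes, Kcnj1, Kcnj2, Kcnj5, Kcnj11 and Kcnj15 among inward rectifiers, Kcnk5, Kcnk7 and Kcnk10 among K2P channels, and Kcnmb1, Kcnn3 and Kcnn4 among calcium-activated channels. Another 52 lay above it on every array and 19 on some. Nontransgenic 4 and nontransgenic 6 stood apart in RNA quality: their beta-actin 3' minus 5' probe set differences were 4.70 and 8.20, and the median of the 8 nontransgenic arrays was 2.34. The ranges were 1.34 to 2.30 in dNLS bigenic, 1.56 to 3.13 in dNLS monogenic and 1.37 to 1.43 in WT bigenic mice (exact permutation tests, two-sided, adjusted p = 0.346 for dNLS bigenic and 0.288 for WT bigenic against nontransgenic mice). 1 nontransgenic mouse labelled male read the female transcript Xist at 11.97. Markers of the labelled tissue were present: none of 4 excitatory neuron and 8 interneuron markers measured lay at the lowest value on all arrays. In dNLS bigenic cortex 2 of the 3 measured genes of a hippocampal list, Wfs1 and Neurod1, passed the threshold as lower (the third, Prox1, was at the lowest value throughout), and the list's summed level was 10.16 to 10.80 against 11.77 to 12.09 in nontransgenic mice. Other markers past the threshold as higher, with their log2 differences, were Pcp2 (0.62) and Gabra6 (0.08, close to the lowest value) of the cerebellar list, Rbfox3 (0.63), Tubb3 (0.20) and the interneuron gene Npy (0.34). Tbr1 (-0.30), Nefl (-0.45), the interneuron genes Sst (-0.44) and Gad1 (-0.20), and the glial genes Aldh1l1 (-0.47), Pdgfra (-0.38), Mbp (-0.13) and Tmem119 (-0.61) were lower, and the part of these lists in the results on channel genes was not tested. Choroid plexus markers varied widely in every group (10.59 to 13.87 in nontransgenic and 12.13 to 14.17 in dNLS bigenic mice).

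In dNLS bigenic cortex 9 channel genes rose and 5 fell against nontransgenic cortex (limma, groups with sex as a covariate, Benjamini-Hochberg adjusted p under 0.05 over all 12393 genes). The 14 are 14.6% of the set, and 22.3% of all genes passed the same threshold, 10.8% as higher and 11.5% as lower. The share of the set that passed was thus below that of all genes. Groups did not overlap in 9 members (9.38%), beside 12.5% of all genes. The set's median change was 0.01 on the log2 scale over the members that lay above the lowest value on all arrays, beside -0.02 over all such genes. Without nontransgenic 4 and 6, 17 passed and 13 of the 14 were among them, while 26.6% of all genes passed. The largest rises were in Hcn3, Cacnb1, Kcnj3 and Kcnk4, each more than 3-fold, and the largest fall was in Kcnk13. In bulk tissue, fewer cells of a type and less RNA in each cell cannot be told apart.

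**Figure D1:**
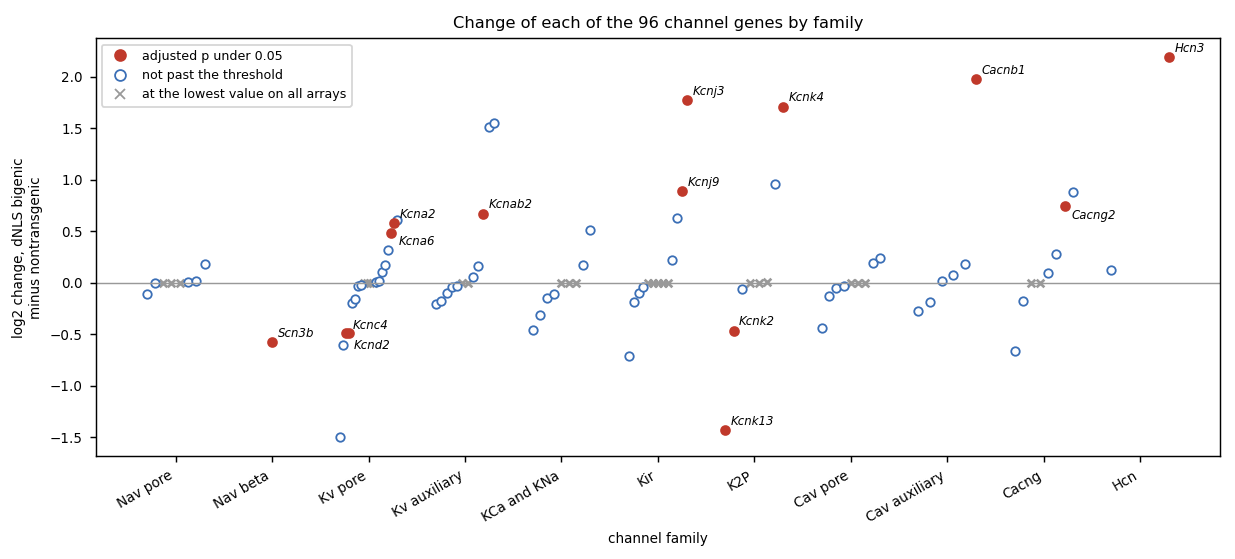
Fitted log2 change of each of the 96 channel genes (vertical axis, dNLS bigenic minus nontransgenic) by family (horizontal axis), with filled points for adjusted p under 0.05, open points for genes not past the threshold and crosses for the 25 genes at the lowest value on all arrays. The named points run from -1.44 (Kcnk13) to 2.19 (Hcn3), and neither pore family of the sodium and calcium channels holds a filled point. In each of these families 3 genes are crosses, and 22.3% of all genes passed.

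Hcn3, a subunit of the hyperpolarization-activated cation channels, had the largest change. Its log2 levels were 4.61, 4.81, 4.56, 4.02 and 4.96 in the 5 dNLS bigenic mice. They were 2.46, 2.49, 2.41 and 2.42 in dNLS monogenic mice and 2.05, 2.41, 2.07 and 2.29 in WT bigenic mice, and in nontransgenic mice the lowest, median and highest were 2.04, 2.46 and 2.65. All 5 dNLS bigenic mice thus lay far above every other mouse, whose levels were near the bottom of the scale. The change against nontransgenic mice was 2.19 ± 0.14 on the log2 scale (SE; 4.55-fold, limma adjusted p = 2.3e-08). Because the control levels were close to the lowest value, the fold rests on that value. Hcn2, the other member measured, was 4.80, 4.83, 4.60, 4.76 and 4.60 in dNLS bigenic mice and 4.54 to 4.60 in nontransgenic mice, a difference of 0.12 ± 0.05 that did not pass (adjusted p = 0.111).

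Cacnb1, the beta subunit best known from the skeletal muscle calcium channel and also made in brain, was 8.13, 7.996, 8.02, 7.80 and 7.63 in dNLS bigenic mice. It was 6.04, 6.20, 6.27 and 6.52 in dNLS monogenic mice, 6.46, 6.36, 6.33 and 6.33 in WT bigenic mice, and 5.40, 6.06 and 6.38 (lowest, median, highest) in nontransgenic mice. The dNLS bigenic group did not overlap any other group, and the change was 1.97 ± 0.15 (3.93-fold, limma adjusted p = 7.5e-08). The probe set carries the suffix _s_at, which marks probes shared by more than 1 transcript, so other transcripts may add to it, and the same holds for that of Kcnc4. A second Cacnb1 probe set differed by 0.97 ± 0.41 with overlapping groups (limma adjusted p = 0.115 over all probe sets), and the last lay near the lowest value. In the second, nontransgenic 4 (3.62) and 6 (2.82) were lowest, and the other nontransgenic mice lay between 4.56 and 5.43. The dNLS bigenic mice lay between 4.99 and 6.29 there, and the WT bigenic mice between 5.32 and 5.48. With the mean of the 3 probe sets the change was 0.99 (adjusted p = 1.0e-04). None of the other 5 calcium channel accessory genes passed, so the share of this family was 16.7%, beside 22.3% of all genes. Among them Cacnb4 differed by 0.18 ± 0.19 and Cacna2d3 by -0.27 ± 0.13. Cacna2d3 passed without nontransgenic 6 (-0.35, adjusted p = 0.0018), where it was lowest of its group at 10.87, without nontransgenic 4 and 6 (-0.40, adjusted p = 3.7e-04), with the beta-actin difference as a covariate (-0.45, adjusted p = 1.0e-04) and with array weights (-0.41, adjusted p = 1.3e-04).

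Kcnj3 and Kcnj9 encode subunits of the G protein-gated inward rectifiers, which carry slow inhibition downstream of receptors such as GABA-B. Kcnj3 was 5.82, 5.96, 6.12, 5.37 and 6.10 in dNLS bigenic mice, 4.86, 3.81, 4.75 and 5.29 in dNLS monogenic mice, 4.53, 4.62, 4.60 and 4.44 in WT bigenic mice, and 3.60, 4.21 and 4.83 in nontransgenic mice. The dNLS bigenic levels were above all others, although the highest monogenic mouse (5.29) lay close to the lowest of them (5.37). The change was 1.77 ± 0.22 (3.41-fold, adjusted p = 1.8e-05). Kcnj9 was 11.86, 11.68, 11.59, 11.45 and 10.75 in dNLS bigenic mice against 9.29, 10.63 and 11.19 in nontransgenic mice. Here the groups overlapped, the change was 0.88 ± 0.30 (adjusted p = 0.0448), and the lowest nontransgenic level was in nontransgenic 6. The Kcnj9 call was lost with the beta-actin difference as a covariate (0.51, adjusted p = 0.0857), without nontransgenic 4 and 6 together (0.67, adjusted p = 0.0665), with only the compared groups in the fit (adjusted p = 0.124), and without any one of dNLS bigenic 1, 2, 3 or 4 or nontransgenic 1, 2, 4 or 7 (adjusted p from 0.0514 to 0.106). With the mean of its 3 probe sets, of which the others lay near the lowest value, Kcnj9 changed by 0.30 (adjusted p = 0.0493). The glial rectifier Kcnj10, which clears potassium around neurons, differed by 0.22 ± 0.11 and did not pass (adjusted p = 0.161). Kcnj5, another subunit of the same channels, lay at the lowest value on all arrays, and Kcnj6 differed by -0.05 ± 0.07 close to it. Of the 13 inward rectifiers 2 rose and none fell (15.4%, beside 22.3% of all genes).

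Kcnk4 encodes TRAAK, a mechanically gated background potassium channel. It was 4.40, 4.58, 3.61, 4.61 and 2.32 in dNLS bigenic mice and between 2.04 and 2.10 in all 16 other mice. All 5 dNLS bigenic mice were above the rest, but dNLS bigenic 5, the 1 female of the group, was only slightly so. The change was 1.71 ± 0.26 (3.27-fold, adjusted p = 1.1e-04), and since the other groups lie at the bottom of the scale the size of the fold is again tied to it. Catsperz, a sperm calcium channel subunit gene and no member of the set, is the protein-coding gene next to Kcnk4 in RefSeq (assembly GRCm38.p6). Catsperz was 10.08, 9.28, 9.73, 8.75 and 7.82 in dNLS bigenic mice and 6.69 to 7.56 in the other 16. Its groups did not overlap either, dNLS bigenic 5 was again the lowest of its group, and the change was 1.84 ± 0.29 (adjusted p = 1.4e-04). Of the 17 channel genes past the threshold in any comparison, 22 protein-coding neighbours were measured, 5 of them (22.7%, beside 22.3% of all genes) passed against nontransgenic mice and 3 of those moved with the channel gene's sign. The others of the 5 were Rpl19 beside Cacnb1 (0.27 ± 0.06), Slc6a17 beside Kcnc4 (0.23 ± 0.04), Psmc1 beside Kcnk13 (0.32 ± 0.06) and Wnt5a beside Cacna2d3 (-0.63 ± 0.19).

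**Figure D2:**
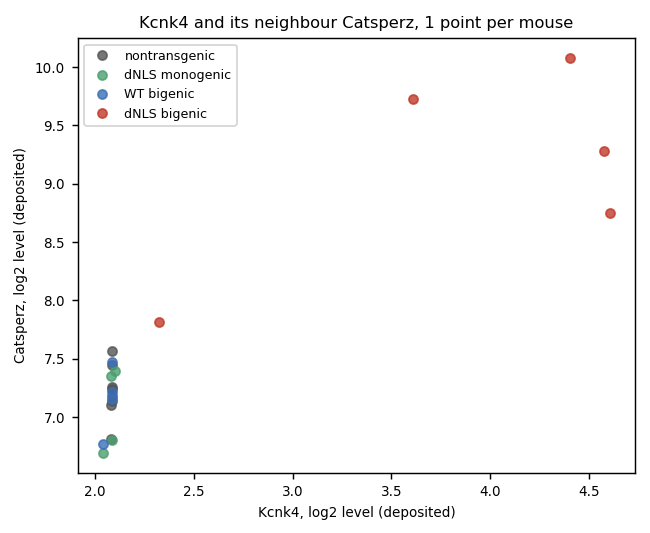
Deposited log2 level of Kcnk4 (horizontal axis) and of its neighbour Catsperz (vertical axis), with 1 point for each of the 21 mice, coloured by group. The 16 mice of the other groups lie together at the lower left, and the dNLS bigenic mice spread from 2.32 to 4.61 in Kcnk4 and from 7.82 to 10.08 in Catsperz.

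The sequences upstream of the 3 most raised genes with an entry in the RefSeq promoter table (GRCm38.p6) are printed beside that of Kcnd2. Kcnd2 is 1 of the genes that fell, though not the one of largest fall. These genes moved in opposite directions and can be compared for a shared element. Each line gives the 250 bases before the first listed start, 5' to 3' on the gene's strand, with the GC box GGGCGG or its reverse complement CCGCCC in capitals. The windows are chr11:98022628-98022877 on the minus strand for Cacnb1, chr19:6934516-6934765 on the minus strand for Kcnk4, chr2:55435720-55435969 on the plus strand for Kcnj3 and chr6:21215096-21215345 on the plus strand for Kcnd2.
Cacnb1: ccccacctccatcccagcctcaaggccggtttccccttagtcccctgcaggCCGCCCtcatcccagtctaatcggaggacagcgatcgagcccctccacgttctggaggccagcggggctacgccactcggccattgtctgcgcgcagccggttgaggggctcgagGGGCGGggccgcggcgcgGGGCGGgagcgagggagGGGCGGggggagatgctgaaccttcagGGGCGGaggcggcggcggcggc
Kcnk4: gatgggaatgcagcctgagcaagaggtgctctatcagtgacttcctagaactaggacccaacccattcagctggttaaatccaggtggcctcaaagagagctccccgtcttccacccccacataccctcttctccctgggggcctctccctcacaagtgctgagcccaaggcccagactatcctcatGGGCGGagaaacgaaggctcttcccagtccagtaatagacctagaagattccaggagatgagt
Kcnj3: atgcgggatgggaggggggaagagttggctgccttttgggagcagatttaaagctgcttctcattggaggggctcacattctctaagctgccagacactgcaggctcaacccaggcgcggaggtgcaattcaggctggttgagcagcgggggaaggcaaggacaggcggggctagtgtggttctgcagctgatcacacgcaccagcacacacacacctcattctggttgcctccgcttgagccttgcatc
Kcnd2: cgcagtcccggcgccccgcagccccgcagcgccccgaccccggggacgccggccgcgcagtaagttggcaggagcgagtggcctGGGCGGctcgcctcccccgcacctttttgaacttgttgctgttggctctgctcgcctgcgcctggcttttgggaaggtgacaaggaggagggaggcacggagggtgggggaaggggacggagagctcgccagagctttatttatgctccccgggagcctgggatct
The Cacnb1 window held 5 matches, 26 CG dinucleotides and 73.2% G or C. The Kcnk4 window held 1 match, 3 CG and 54.8%, the Kcnj3 window no match, 7 CG and 58.4%, and the Kcnd2 window 1 match, 22 CG and 68.8%. The motif thus occurred beside raised genes and beside Kcnd2, and the windows differed in base composition. Of the other genes that fell, Kcnc4 held 1 match before its first start, and Kcnk13 and Kcnk2 held none there. Before its start listed as number 3, Kcnk2 held 1 match. Over all 32851 windows of the table, 32.7% held the motif, the median CG count was 6 and the median G or C content 52.4%. Of the 17 channel genes past the threshold in any comparison, 15 had an entry, and 8 of those 15 held the motif before their first start. The share over all windows also counts later starts of a gene, so it is not a like measure for these 15. A match is a description of these letters and not a binding site.

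Kcna2, Kcna6 and Kcnab2 encode parts of the Shaker-type potassium channels that sit along axons: Kcna2 and Kcna6 are pores and Kcnab2 is the beta subunit that brings them to the axon. Kcna2 was 3.16, 2.69, 3.09, 2.28 and 2.19 in dNLS bigenic mice against 2.04, 2.07 and 2.09 (lowest, median, highest) in nontransgenic mice, a change of 0.58 ± 0.12 (adjusted p = 0.0025). Kcna6 was 2.47, 2.48, 3.12, 3.03 and 2.88 against 2.10, 2.36 and 2.43, a change of 0.48 ± 0.11 (adjusted p = 0.0032). The groups did not overlap in either gene, but both genes lay between 2.04 and 3.16 in every mouse, close to the lowest value. Kcnab2 was well above it, at 12.64, 12.43, 12.45, 12.11 and 12.49 in dNLS bigenic mice and 11.24, 11.81 and 12.13 in nontransgenic mice. The change in Kcnab2 was 0.67 ± 0.14 (1.59-fold, adjusted p = 0.0020), and its groups overlapped only through nontransgenic 6 at 12.13. The second Kcnab2 probe set changed in the same direction by 1.38 ± 0.20 without overlap (adjusted p = 7.1e-05 over all probe sets), and the mean of both by 1.03 (adjusted p = 2.6e-06). It lay between 2.04 and 2.76 in nontransgenic mice, so the size of both values rests on the lowest value. Kcna1, another axonal pore, differed by 0.31 ± 0.20 and Kcna4 by 0.17 ± 0.35, and neither passed. Of the 20 potassium channel pores 2 rose and 2 fell (20%), and of the 12 accessory genes 1 rose (8.33%), beside 22.3% of all genes.

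Cacng2 encodes stargazin, which carries AMPA receptors to the synapse. It was 10.33, 10.29, 10.45, 10.63 and 9.97 in dNLS bigenic mice and 9.12, 9.56 and 10.16 in nontransgenic mice. Only dNLS bigenic 5 lay within the nontransgenic range, and the change was 0.74 ± 0.17 (1.67-fold, adjusted p = 0.0033). It was the 1 Cacng gene of 8 to pass (12.5%, beside 22.3% of all genes). Cacng3 differed by 0.88 ± 1.01, with nontransgenic 6 at 2.97 and the other nontransgenic mice between 7.95 and 10.84.

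**Figure D3:**
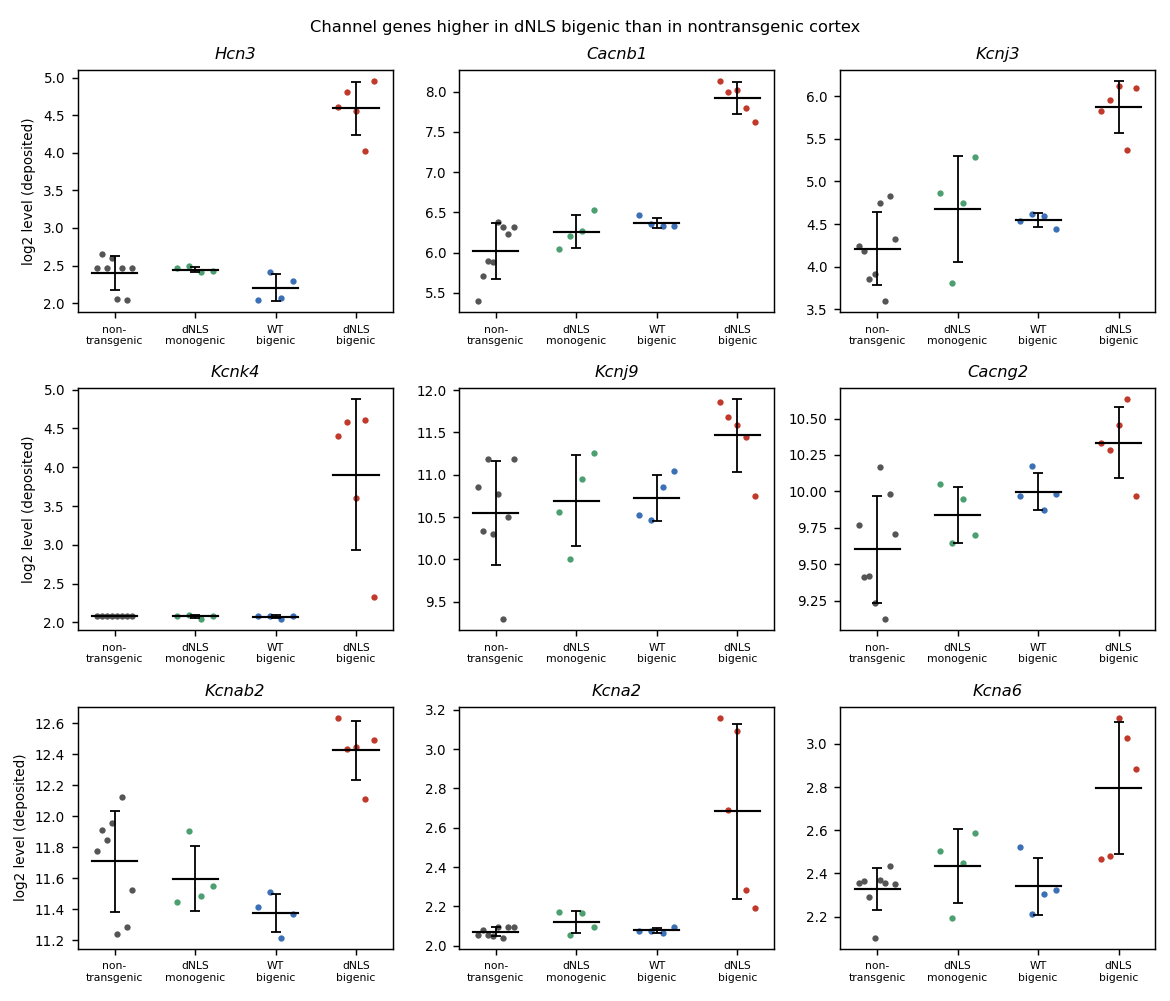
Deposited log2 levels of the 9 channel genes higher in dNLS bigenic than in nontransgenic cortex, with 1 point for each mouse and bars for the mean ± SD of each group (8, 4, 4 and 5 mice). In Hcn3, Cacnb1, Kcnj3, Kcnk4, Kcna2 and Kcna6 every dNLS bigenic point lies above every nontransgenic point, and each panel has its own axis.

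Apart from Kcnk13, the genes that fell changed by 0.58 or less on the log2 scale, and the rises of Kcna2 and Kcna6 were of similar size. Scn3b, a sodium channel beta subunit, was 9.59, 10.23, 10.23, 10.29 and 10.28 in dNLS bigenic mice and 10.60, 10.73 and 10.82 in nontransgenic mice. It was 10.76, 10.83, 10.76 and 10.77 in dNLS monogenic mice and 10.49, 10.48, 10.42 and 10.75 in WT bigenic mice, so that dNLS bigenic mice lay below all others. Scn3b fell by 0.58 ± 0.10 on the log2 scale (1.49-fold, adjusted p = 3.3e-04). The second Scn3b probe set lay near the lowest value, and the mean of both fell by 0.28 (adjusted p = 0.0021).

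Kcnd2, the main pore of the fast inactivating dendritic potassium current, was 10.86, 10.74, 10.58, 10.92 and 10.45 in dNLS bigenic mice and 10.79, 11.25 and 11.52 in nontransgenic mice. The groups overlapped through nontransgenic 4, the lowest of its group, and the change was -0.49 ± 0.11 (adjusted p = 0.0047). A second Kcnd2 probe set changed by -0.63 ± 0.17 (adjusted p = 0.0155 over all probe sets) and the last by 0.00 ± 0.38, and the call was lost with the mean of the 3 (-0.37, adjusted p = 0.208). In the last, nontransgenic 4 and 6 read 9.37 and 8.82 and the other nontransgenic mice 10.17 to 11.42. The dNLS bigenic mice read 10.26 to 10.52 there. Kcnc4, a fast high-threshold potassium channel, was 10.9998, 11.10, 10.95, 10.83 and 11.21 against 11.09, 11.50 and 11.88, an overlap of 2 dNLS bigenic mice with the nontransgenic range. It changed by -0.49 ± 0.12 (adjusted p = 0.0077), a call that was also lost with the mean of its 2 probe sets (-0.40, adjusted p = 0.117). The second Kcnc4 probe set was 7.21 to 7.74 in dNLS bigenic mice. In nontransgenic mice it was 7.38 and 5.55 in numbers 4 and 6 and 8.03 to 8.17 in the others. Kcnk2, the mechanically and lipid-gated background channel TREK-1, was 9.91, 10.07, 10.08, 10.29 and 10.79 against 10.57, 10.70 and 10.90. dNLS bigenic 5 alone lay in the nontransgenic range, and the change was -0.47 ± 0.12 (adjusted p = 0.0094). Wfs1 and Neurod1 of the hippocampal list were lower in the same mice, and the part of that in these falls was not tested. Whether the Wfs1 and Neurod1 signal came from hippocampal or from cortical cells was not tested either.

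Kcnk13, the background channel THIK-1 that is known in brain chiefly from microglia, was 2.23, 2.73, 3.03, 2.70 and 3.08 in dNLS bigenic mice. It was 3.43, 4.20, 3.77 and 3.27 in dNLS monogenic mice, 3.43, 3.53, 3.43 and 3.43 in WT bigenic mice, and 3.10, 3.76 and 5.98 in nontransgenic mice. The dNLS bigenic mice lay below all others, narrowly so against the nontransgenic group (3.08 against 3.10), and the 2 highest levels (5.29 and 5.98) were in nontransgenic 4 and 6. The change was -1.44 ± 0.42 (2.70-fold, adjusted p = 0.0190). With the beta-actin difference as a covariate it was -0.81 (adjusted p = 5.0e-04), and the call was lost with only the compared groups in the fit (adjusted p = 0.0944) and without dNLS bigenic 1 (adjusted p = 0.0520). Of 5 microglial markers measured, none of them at the lowest value on all arrays, Tmem119 passed as lower (-0.61, adjusted p = 0.0053). Their summed level was 11.90 to 12.72 in dNLS bigenic and 12.27 to 13.06 in nontransgenic mice. The part of these markers in the Kcnk13 result was not tested.

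**Figure D4:**
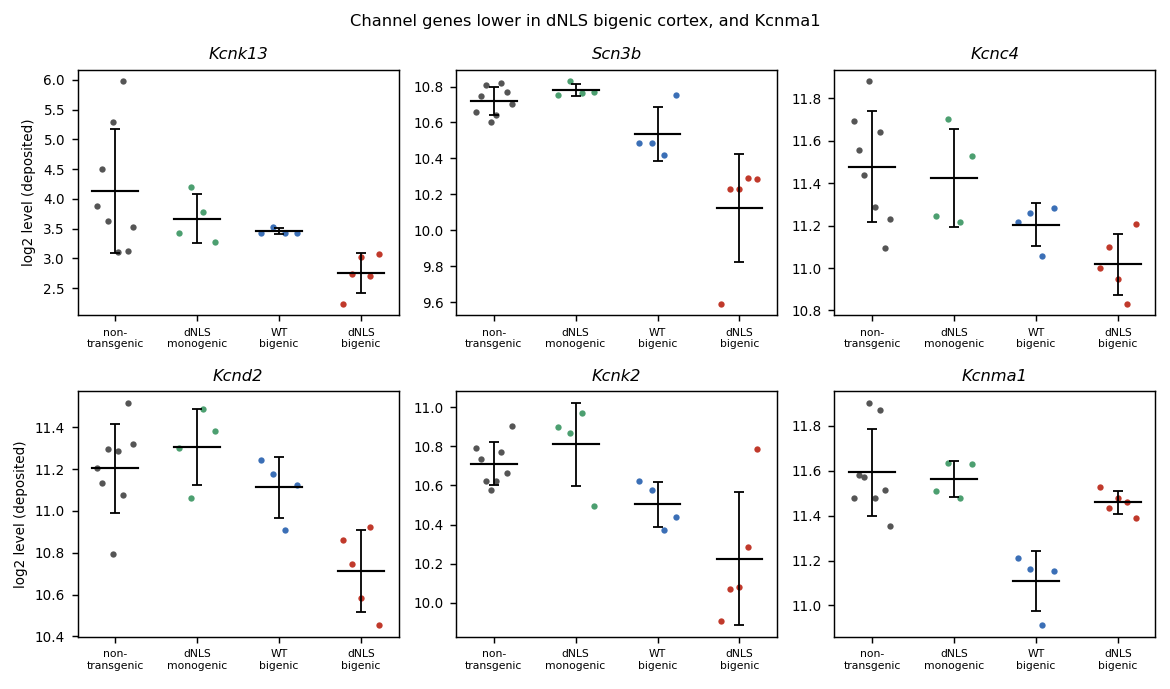
Deposited log2 levels of the 5 channel genes lower in dNLS bigenic than in nontransgenic cortex, and of Kcnma1, with 1 point for each mouse and bars for the mean ± SD of each group (8, 4, 4 and 5 mice). In Scn3b and Kcnk13 every dNLS bigenic point lies below every nontransgenic point, and in Kcnma1 it is the WT bigenic points that lie apart, from 10.91 to 11.21.

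None of the 8 sodium channel pores and none of the 9 calcium channel pores passed in this comparison by the probe set of highest mean (0 and 1 of them at an unadjusted p under 0.05). In each family 3 genes lay at the lowest value on all arrays, where no change could be seen. Of all genes 22.3% passed, and families this small cannot be told apart from that share. The 95% interval of the log2 difference was -0.12 to 0.13 for Scn2a, -0.22 to 0.24 for Scn1a, -0.18 to 0.54 for Scn8a, -0.13 to 0.61 for Cacna1c and -1.12 to 0.24 for Cacna1a. Scn2a had the narrowest of these intervals, and Cacna1a, the pore of the main presynaptic calcium channel, the widest. Cacna1b (-0.04 ± 0.17) and Cacna1g (-0.05 ± 0.30) did not pass, and Scn3a and Cacna1e lay at the lowest value on all arrays. Among other main pores that did not pass, the difference was -0.15 ± 0.08 for Kcnma1, -0.11 ± 0.12 for Kcnn2 and -0.06 ± 0.04 for Kcnk1. None of the 9 calcium-activated and related genes passed, and of the 8 K2P genes 1 rose and 2 fell (37.5%, beside 22.3% of all genes). Kcnk3, an acid-sensitive K2P channel, differed by 0.95 (adjusted p = 0.0821), with its lowest level, 5.85, in nontransgenic 6. Kcnc1, a pore of fast-spiking neurons, was 6.81, 6.71, 6.91, 6.63 and 6.76 against 4.56, 6.40 and 6.58, with the lowest level in nontransgenic 6. Its groups did not overlap, the difference was 0.60 ± 0.27 (adjusted p = 0.131), and without nontransgenic 4 and 6 it passed (0.32, adjusted p = 0.0156).

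Scn1a, the sodium channel of fast-spiking interneurons, differed between its 2 probe sets. The brighter one, which stands for the gene above, was 12.85, 12.75, 12.86, 12.66 and 12.74 in dNLS bigenic mice and 12.45, 12.69 and 13.27 in nontransgenic mice, the highest of them nontransgenic 4 and 6. The other was 11.48, 11.22, 11.20, 11.18 and 11.22 in dNLS bigenic mice, 10.60, 10.76, 10.57 and 10.71 in dNLS monogenic mice, 10.64, 10.89, 10.42 and 10.47 in WT bigenic mice, and 10.50, 10.60 and 10.71 in nontransgenic mice. In this second probe set the dNLS bigenic mice lay above all others, with a change of 0.67 ± 0.07 (adjusted p = 6.7e-06 over all probe sets). It was singled out after its values were seen. With the mean of both, Scn1a changed by 0.34 ± 0.06 (adjusted p = 9.9e-04), and with the beta-actin difference as a covariate the brighter probe set alone changed by 0.17 ± 0.05 (adjusted p = 0.0227). Where the probes of each lie on the transcript was not analysed here.

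3 accessory or pore genes had large differences that did not pass. Kcnip2, a calcium-binding partner of the Kcnd channels, differed by 1.55 ± 1.09 and was at the lowest value in nontransgenic 4 and 6 alone, while the other nontransgenic mice ranged from 2.90 to 7.67. Kcna5 differed by -1.50 ± 0.57 (adjusted p = 0.0706), with its highest level, 6.78, in nontransgenic 6, but also 5.23 in dNLS monogenic 3 and 3.98 in nontransgenic 4. Kcne2, an accessory subunit abundant in choroid plexus, was 2.79, 3.83, 4.51, 2.04 and 4.46 in dNLS bigenic mice, 7.63 in dNLS monogenic 1, 5.60 in WT bigenic 3 and at most 2.10 in the others. The choroid plexus gene Ttr was 14.17, 14.09, 14.07, 12.13 and 14.06 in the same 5 dNLS bigenic mice, 14.36 in dNLS monogenic 1 and 14.11 in WT bigenic 3. Kcne2 and Ttr were both lowest in dNLS bigenic 4 among the dNLS bigenic mice. Among nontransgenic mice Ttr reached 13.87, 13.81 and 13.58 in numbers 4, 8 and 6, while Kcne2 stayed at 2.04 to 2.10.

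Against WT bigenic mice, which carry tTA as well, 7 channel genes passed in dNLS bigenic mice, all of them higher in this fit. They were 7.29% of the set, beside 10.8% of all genes (6.24% as higher). All dNLS bigenic mice were of line NLS4 and all WT bigenic mice of line WT12, so line and TDP-43 form cannot be told apart here. The sexes were also unequal (4 males and 1 female against 1 male and 3 females), with sex in the fit as a covariate. Hcn3 was higher by 2.38 ± 0.17 (limma adjusted p = 5.4e-07), Cacnb1 by 1.68 ± 0.18 (adjusted p = 1.4e-05), Kcnk4 by 1.63 ± 0.32 (adjusted p = 0.0026), Kcnj3 by 1.52 ± 0.27 (adjusted p = 0.0014) and Kcnab2 by 0.96 ± 0.17 (adjusted p = 0.0013). The groups did not overlap in any of these 5 genes, and with the mean of its probe sets Cacnb1 was higher by 0.61 (adjusted p = 0.0393). Kcna2 (0.54 ± 0.15, adjusted p = 0.0291) and Kcna6 (0.49 ± 0.13, adjusted p = 0.0239) also passed. Both calls were lost with only the compared groups in the fit, as was that of Kcnk4 (adjusted p = 0.308, 0.208 and 0.105). Kcna2 was also lost without dNLS bigenic 3 or WT bigenic 1, 2 or 3 (adjusted p from 0.0514 to 0.139), and Kcna6 without dNLS bigenic 5 or WT bigenic 2, 3 or 4 (adjusted p from 0.0512 to 0.0736) and with arrays centred on their medians (adjusted p = 0.0567). That no gene was lower depends on the fit: without nontransgenic 4 and 6, which enter through the shared spread and the sex term, 10 passed as higher and 5 as lower, and with only the compared groups 9 and 5. In these fits 18.3% and 18.7% of all genes passed. Scn3b differed by -0.38 ± 0.12 (adjusted p = 0.0537) and passed in 8 alternatives, among them without nontransgenic 4 and 6 (-0.39, adjusted p = 0.0439) and without dNLS bigenic 1 (-0.26, adjusted p = 0.0162). Kcnd2 differed by -0.39 ± 0.14 (adjusted p = 0.0927) and passed in 5, among them without nontransgenic 4 and 6 (-0.41, adjusted p = 0.0253). Kcnk13 passed in 3 alternatives and Kcnk2 in 2, one of them without dNLS bigenic 5 (-0.48, adjusted p = 0.0130). Other genes passed as higher only under alternatives. Without nontransgenic 4 and 6 they were Scn1a (0.33, adjusted p = 0.0028), Kcnma1 (0.31, adjusted p = 0.0021) and Kcnc1 (0.54, adjusted p = 0.0025).

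Against dNLS monogenic mice of the same line, which carry the transgene without its driver, 11 channel genes passed in dNLS bigenic mice, 7 higher and 4 lower. They were 11.5% of the set, beside 14.3% of all genes (7.76% as higher and 6.54% as lower). Hcn3 (2.14), Kcnk4 (1.81), Cacnb1 (1.67), Kcnj3 (1.22), Kcnab2 (0.82) and Kcna2 (0.56) were higher, and Scn3b (-0.65), Kcnd2 (-0.59) and Kcnk2 (-0.58) were lower (limma adjusted p from 2.3e-07 for Hcn3 to 0.0126 for Kcna2). In Scn3b and Kcnd2, as in the 6 raised genes, the groups did not overlap. With the mean of their probe sets Cacnb1 was higher by 0.66 (adjusted p = 0.0123) and Scn3b differed by -0.38 (adjusted p = 7.3e-04). Without nontransgenic 4 and 6 the count was 20, and 23.3% of all genes passed. The call of Kcna2 (adjusted p = 0.127) and that of Kcnk2 (adjusted p = 0.0931) were lost with only the compared groups in the fit.

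Kcnmb4 and Cacna2d3 passed in that comparison and in no other by the fit of all groups with sex. Under alternatives Kcnmb4 also passed against nontransgenic mice in 5 (adjusted p from 0.0044 to 0.0473) and Cacna2d3 in 4, and against WT bigenic mice they passed in 2 and 4. Kcnmb4, the neuronal beta subunit of the large-conductance calcium-activated channel, was 11.35, 11.31, 11.27, 11.14 and 11.24 in dNLS bigenic mice and 10.84, 11.14, 10.89 and 11.004 in dNLS monogenic mice, a rise of 0.29 ± 0.07 (adjusted p = 0.0119) that was lost without dNLS monogenic 1 or 3 (adjusted p = 0.0542 and 0.0513). The lowest dNLS bigenic and the highest dNLS monogenic mouse both read 11.14. Cacna2d3, a subunit that sets the number of calcium channels at the synapse, was 11.09, 11.29, 11.22, 11.26 and 11.38 against 11.82, 11.62, 11.75 and 11.77. These groups did not overlap, and Cacna2d3 fell by 0.49 ± 0.15 (adjusted p = 0.0348), a call lost without any one of dNLS bigenic 1, 2, 3 or 4 or dNLS monogenic 1, 3 or 4 (adjusted p from 0.0532 to 0.0970).

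In all 3 comparisons of dNLS bigenic mice 6 genes passed: Hcn3, Cacnb1, Kcnk4, Kcnj3, Kcnab2 and Kcna2, each higher every time. These comparisons share the dNLS bigenic mice, so the overlap carries no separate evidence.

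**Figure D5:**
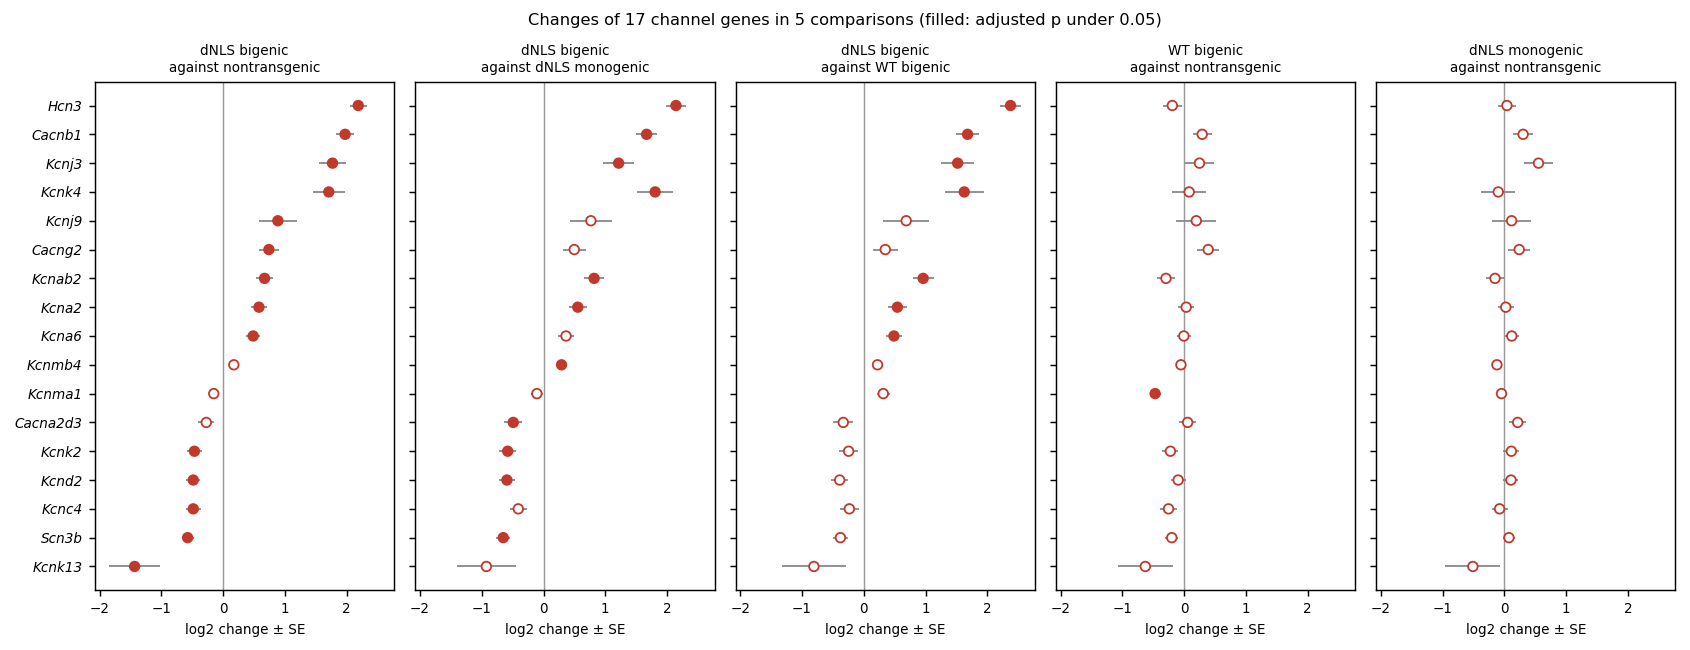
Fitted log2 change ± SE (horizontal axis) of the 17 channel genes past the threshold in at least 1 of 5 comparisons, with 1 panel for each comparison and filled points for adjusted p under 0.05. The first 3 panels hold 14, 11 and 7 filled points, the WT bigenic panel 1 (Kcnma1) and the dNLS monogenic panel none.

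In WT bigenic cortex a single channel gene changed against nontransgenic cortex. Kcnma1, the pore of the large-conductance calcium-activated potassium channel, was the 1 to pass, which is 1.04% of the set beside 2.23% of all genes (0.686% as higher and 1.54% as lower). It was 11.21, 11.16, 10.91 and 11.15 in WT bigenic mice, 11.53, 11.44, 11.48, 11.46 and 11.39 in dNLS bigenic mice, 11.51, 11.63, 11.48 and 11.63 in dNLS monogenic mice, and 11.35, 11.54 and 11.90 in nontransgenic mice. The WT bigenic mice lay below all others, and Kcnma1 fell by 0.47 ± 0.09 (1.38-fold, limma adjusted p = 0.0181). The call was lost without WT bigenic 1 (adjusted p = 0.0549) or 3 (adjusted p = 0.0756), with only the compared groups in the fit (adjusted p = 0.176), and against the nontransgenic mice of line WT12 alone (-0.33, adjusted p = 0.360). A second Kcnma1 probe set differed by 1.02 ± 0.79 in the opposite direction (adjusted p = 0.545 over all probe sets), with 3.84 in nontransgenic 6 and 7.66 in nontransgenic 4 as its lowest levels. The mean of both turned the sign to 0.28 (adjusted p = 0.820). Without nontransgenic 7 the calcium channel pore Cacna1b passed as well (0.62, adjusted p = 0.0356). That mouse is 1 of the 2 controls of line WT12, and its Cacna1b level of 5.08 lay above all WT bigenic mice (4.50 to 4.86).

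In dNLS monogenic mice, which carry the transgene without tTA, no channel gene passed against nontransgenic mice, and 0 of all 12393 genes passed. At an unadjusted p under 0.05 it was 1 channel gene and 196 of all genes by limma. That channel gene was Kcnj3, at 0.55 ± 0.24 (unadjusted p = 0.0315, adjusted p = 1).

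A list of 44 proteins that bind, anchor or modify these channels had 32 genes measured. In dNLS bigenic against nontransgenic mice 5 of them rose and 6 fell, which is 34.4% beside 22.3% of all genes. Of the 32, only 1 lay at the lowest value on all arrays, beside 23.0% of all genes. In the fit without such genes 31.6% of all genes passed. This list is a description and was drawn up with earlier results of these data known. Fgf13, an intracellular factor that binds sodium channels and slows their inactivation, was 11.08, 11.22, 11.19, 11.26 and 11.08 in dNLS bigenic mice, 11.79, 11.93, 12.02 and 11.98 in dNLS monogenic mice, 11.77, 11.71, 11.46 and 11.83 in WT bigenic mice, and 11.91, 11.99 and 12.36 in nontransgenic mice. All dNLS bigenic mice were below all others and the WT bigenic mice lay between them and the nontransgenic mice. Fgf13 fell by 0.85 ± 0.08 (adjusted p = 5.4e-07) and against WT bigenic mice by 0.52 ± 0.09 (adjusted p = 0.0014). With the mean of its probe sets the falls were 0.48 (adjusted p = 3.7e-06) and 0.31 (adjusted p = 0.0041).

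Stac2, which binds voltage-gated calcium channels, was 11.72, 11.44, 11.38, 11.02 and 10.89 in dNLS bigenic mice, at most 10.20 in the others, and rose by 1.40 ± 0.24 (adjusted p = 3.9e-04). Cabp1, a calcium sensor of the same channels, was 11.42, 11.35, 11.40, 11.28 and 10.89 in dNLS bigenic mice, at most 10.78 in the others, and rose by 1.25 ± 0.24 (adjusted p = 8.4e-04). Both were lowest in nontransgenic 6 (8.34 and 8.88). Cntnap1, an adhesion protein that keeps axonal potassium channels beneath the myelin, rose by 1.59 ± 0.52 (adjusted p = 0.0381), with nontransgenic 6 at 2.04. It was 6.17 to 6.94 in dNLS bigenic, 5.86 to 6.41 in WT bigenic and 4.87 to 5.91 in dNLS monogenic mice. Against WT bigenic mice the difference was 0.30 ± 0.64 and did not pass. With the beta-actin difference as a covariate Cntnap1 rose by 0.79 against nontransgenic mice (adjusted p = 7.8e-04) and by 0.52 against WT bigenic mice (adjusted p = 0.0474). Its call against nontransgenic mice was lost with only the compared groups in the fit (adjusted p = 0.144) and without any one of the 5 dNLS bigenic mice or nontransgenic 2, 3 or 4 (adjusted p from 0.0504 to 0.0845). The scaffold Dlg1, which clusters channels at synapses, fell by 0.58 ± 0.08 (adjusted p = 5.3e-05), and the release protein Stx1a, which also binds calcium channels, fell by 0.62 ± 0.10 (adjusted p = 1.9e-04). The other calls were Adam23 (0.47) and Ank3 (0.37), both higher, and Cntnap2 (-0.31), Vapa (-0.24) and Cntn1 (-0.15), all lower.

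In WT bigenic against nontransgenic mice 2 partners passed, which is 6.25% beside 2.23% of all genes. In the fit without genes at the lowest value on all arrays 3.99% of all genes passed. Dlg1 fell by 0.39 ± 0.09 (adjusted p = 0.0307) and Fgf13 by 0.33 ± 0.08 (adjusted p = 0.0444). Dlg1 was lost without nontransgenic 7 or WT bigenic 1, 2 or 3 (adjusted p from 0.0531 to 0.115). Fgf13 was lost without any 1 of the 4 WT bigenic mice or of nontransgenic 1, 2, 3, 7 and 8 (adjusted p from 0.0513 to 0.166), with the mean of its probe sets (-0.18, adjusted p = 0.114) and with quantile normalization (-0.30, adjusted p = 0.0662), and both were lost with arrays centred on their medians, with only the compared groups in the fit, with the beta-actin difference as a covariate and against line WT12 controls alone (adjusted p from 0.0548 to 0.474). In dNLS against WT bigenic mice Stac2 (1.29 ± 0.30, adjusted p = 0.0087) and Fgf13 passed, which is 6.25% beside 10.8% of all genes, and Stac2 was lost without WT bigenic 1 (adjusted p = 0.0510). Against dNLS monogenic mice Stac2 and Cabp1 passed as higher and Fgf13, Stx1a, Dlg1 and Cntn1 as lower, which is 18.8% beside 14.3% of all genes. Without genes at the lowest value on all arrays, 15.4% of all genes passed against WT bigenic and 20.4% against dNLS monogenic mice. The dNLS monogenic mice had no partner past the threshold.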

How the data were processed

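The values were log2 expression levels as deposited by the authors in the series' value table. The log2 scale is read from the values (2.04 to 15.1), and Partek is named in the submitters' processing notes. The sources used here do not give the background correction, probe set summary or normalization, which set the lowest value that compresses changes in weak genes. Per the labels' protocols, cortex RNA (3 µg, integrity number of at least 7) was amplified from an oligo-dT primer, so that levels depend on intact 3' ends.

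The 64 control probe sets were set aside. Of the rest, 20380 named 1 gene in the platform's annotation, 691 several and 1555 none, and only the first were used. Each gene was represented by its brightest probe set on average over 21 arrays, and levels of different probe sets were not compared. All 96 channel genes matched RefSeq by gene identifier.

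Group differences were fitted with limma 3.58.1 in R 4.3.3 (lmFit and eBayes with an intensity trend) on all 4 groups with labelled sex as a covariate, with Benjamini-Hochberg adjustment over 12393 genes. The number of arrays, not a read depth, limits the precision. Each array is 1 mouse, replicate numbers only name arrays, and p-values measure the spread between these mice. The code was tested on simulated data. Named genes were the members past the threshold in any comparison and main channel genes of a fixed list, 21 of whose 27 were measured. The members and lists were chosen with earlier results of these data known. A value counted as the lowest within 0.01, and the alternatives are given in the closing section.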

Additional observations from a re-analysis of the deposited data

Results flagged for a closer look

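Among 91 sets of group values over 23 channel and partner genes past the threshold, 13 held a sample far from the rest of its group by Dixon's criterion, and chance gives about 1 such group in 20. In nontransgenic 6, the array of largest beta-actin difference, Kcnj9 was 9.29 (others 10.30 to 11.19), Cntnap1 2.04 (others 4.31 to 6.31), Stac2 8.34 (others 9.87 to 10.13) and Fgf13 12.36 (others 11.91 to 12.03). In nontransgenic 4, Kcna6 was 2.10 (others 2.29 to 2.43) and Dlg1 12.25 (others 11.69 to 11.95). Scn3b was 9.59 in dNLS bigenic 1 (others 10.23 to 10.29). In dNLS bigenic 5, Cabp1 was 10.89 (others 11.28 to 11.42) and Dlg1 10.995 (others 11.40 to 11.50). Stx1a was 12.80 in dNLS bigenic 4 (others 13.07 to 13.17) and 13.79 in dNLS monogenic 2 (others 13.44 to 13.46). Kcnk13 was 3.53 in WT bigenic 2 (others 3.43) and Kcnk4 was 2.04 in WT bigenic 3 (others 2.08), both gaps that are small on the log2 scale.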

How the results depend on the processing

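Of the 33 calls of channel genes in the 5 comparisons, 21 stayed past the threshold under every alternative run, and the others are named with their values in the report. With array weights 26 channel genes passed in dNLS bigenic against nontransgenic mice, 2 in WT bigenic against nontransgenic mice, 20 in dNLS against WT bigenic mice and 33 in dNLS bigenic against dNLS monogenic mice, while 34.3%, 7.01%, 25.1% and 34.8% of all genes passed. Against WT bigenic mice 13 passed without the sex covariate (3 lower), 14 with only the compared groups in the fit (5 lower, and 4 of the 7 among them), 16 with the beta-actin difference as a covariate (5 lower) and 15 without nontransgenic 4 and 6 (5 lower), and of the 20 with array weights 7 were lower. The shares of all genes in the first 4 of these settings were 13.8%, 18.7%, 19.7% and 18.3%. Against dNLS monogenic mice 21 passed with the beta-actin difference as a covariate and 20 without nontransgenic 4 and 6, with 23.3% of all genes in each. The WT bigenic count was 0 with only the compared groups, with the mean of a gene's probe sets and against controls of the same line. In these settings 0%, 1.37% and 0.00807% of all genes passed. The causes of these shifts were not tested. With sex read from Xist, and with every probe set adjusted on its own, the counts of the 5 comparisons did not change. Without the intensity trend 15 channel genes passed in dNLS bigenic against nontransgenic mice and 12 against dNLS monogenic mice (22% and 14.2% of all genes). Without the genes at the lowest value on all arrays these counts were 16 and 13 (31.6% and 20.4% of the genes left). The mean of probe sets turned Kcnma1 in WT bigenic mice to 0.28. Leaving out 1 mouse at a time gave 13 to 18 genes for dNLS bigenic against nontransgenic mice, 0 to 2 for WT bigenic against nontransgenic mice, 5 to 8 for dNLS against WT bigenic mice, 9 to 14 for dNLS bigenic against dNLS monogenic mice and 0 to 0 for the last comparison. Centring arrays on their medians moved the median of all genes by 0.02, and quantile normalization by 0. No paired analysis was possible because the labels number the arrays in 1 running series, so no groups share replicate numbers. Signal close to the lowest value limits Hcn3, Kcnk4, Kcna2, Kcna6 and Kcnk13.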
